A study of Mus musculus with 23 samples.

Results

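The genes described here are 35 transcripts of the red cell lineage, measured in libraries of sorted macrophages. They were chosen by name from the red cell programme, with earlier results of these data known, and they are 35 of the 26139 genes listed in the deposited tables. Counts of called members are therefore a description and not independent support. By role they comprise 5 regulators (Klf1, Gata1, Tal1, Gfi1b, Nfe2), 7 enzymes of heme synthesis (Alas2, Alad, Uros, Urod, Cpox, Ppox, Fech) and 13 genes of the membrane and cell surface (Rhag, Rhd, Kel, Ermap, Slc4a1, Sptb, Ank1, Epb41, Icam4, Aqp1, Tspo2, Tspan33, Tmcc2). The other members are 6 cytosolic and other late genes (Car1, Car2, Bpgm, Hemgn, Trim10, Trim58) and 4 adult globin genes (Hba-a1, Hba-a2, Hbb-bs, Hbb-bt). The first table lists 34 of them, without Epb41, and the second lists 35, and every listed member passed the filter on low values.

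The study asks how PPARγ, a nuclear receptor encoded by Pparg, shapes erythroblastic island macrophages of marrow and red pulp macrophages of spleen, and all mice were C57BL/6. The first table holds macrophages of day 7 pups: 3 spleen libraries labelled vavCre, 3 spleen WT, 3 bone marrow vavCre and 3 bone marrow WT. The second holds spleen macrophages only, with 2 libraries labelled Spic_KO and 3 Spic_WT from day 7 pups. It also holds 4 libraries labelled TAM_CreERT2 and 2 labelled TAM_WT from adults. Both adult groups thus carry the label TAM, and TAM_WT is called adult WT below. Each library was made from 1000 cells sorted by flow cytometry.

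The vav regulatory elements are known to be active in blood stem cells and their progeny, so the labels do not restrict Cre to macrophages, and CreERT2 is a Cre that tamoxifen activates. The labels name no floxed gene, do not define TAM and do not name what drives CreERT2. They do not say whether replicates came from separate animals, so p-values measure the spread between libraries, which may be technical. The study's own note on design calls the remaining Pparg-deficient cells few and RPM-like or EIM-like.

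Erythroblasts mature on macrophages that hold them in islands and engulf the nuclei they expel, and red pulp macrophages take up aged red cells. In the erythroblast the transcription factors GATA1, TAL1 and KLF1 switch on the enzymes that build heme, the proteins of the membrane skeleton and blood group antigens, and finally the globins, whose transcripts persist after the nucleus has been lost. Several members are not confined to red cells: Gata1, Tal1, Gfi1b and Nfe2 are also known in megakaryocytes, and the heme enzymes other than Alas2 serve every cell that makes heme. Whether the transcripts measured here came from attached or engulfed erythroid cells, from free RNA or from the macrophages was not tested.

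Recovered depths, in M reads per library, ran from 4.26 to 21.7 for the first table and from 0.693 to 6.29 for the second. Macrophage markers were read in every library: none of 12 was at 0 in any, among them Adgre1 (F4/80) and Csf1r (the CSF1 receptor). Their levels were not equal: they summed to 20191 and 19620 in Spic_KO, against 29634 to 40600 in Spic_WT. In Spic_KO 11 of the 12 had a negative log2 change and 4 were called lower, against 2.48% of all genes. The part of this difference in the erythroid values was not tested. Pparg itself was not lower in the libraries labelled vavCre. It read 4002, 2496 and 2613 normalised counts in spleen vavCre, against 1691, 1550 and 2124 in spleen WT (log2 change 0.74 ± 0.20 SE, adjusted p = 0.0313), a call that did not hold without vavCre replicate 1 or WT replicate 1 or 2. In marrow it read 2972, 2088 and 1813 in vavCre, against 1703, 1601 and 1605 in WT (log2 change 0.45 ± 0.20, adjusted p = 0.193). In adults it read 261, 182, 251 and 225 in CreERT2, against 92.3 and 168 in WT (log2 change 0.86 ± 0.37, adjusted p = 0.6). Reads summed over the whole gene do not show whether part of it was removed, and the labels do not give the deleted part. Pparg was 26.03 and 21.7 in Spic_KO, against 330, 211 and 221 in Spic_WT (log2 change -3.33 ± 0.39, adjusted p = 2.94e-05). Spic, the transcription factor named by that genotype, was 931 and 1236 in Spic_KO, against 3110, 1993 and 2203 in Spic_WT (log2 change -1.16 ± 0.30, adjusted p = 0.0319), so the targeted gene was lower but not at 0; the call did not hold without either Spic_KO library or without Spic_WT replicate 1 or 3.

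The sequences below are promoters of the genes on which the results turn: an alpha globin gene and both beta globin genes, whose levels part in the second table, Alas2, which opens heme synthesis, and the regulator Klf1. Each holds 250 bases before and 50 after the RefSeq start site in GRCm38.p6, read 5′ to 3′ on the gene's strand. Capitals mark the core letters bound by GATA factors (AGATAA or TGATAA) and the CACC-type letters bound by KLF1 (CCNCNCCC), on either strand, so that reverse complements are in capitals too. Hba-a1 lies at chr11:32283422-32283721 (+), Hbb-bs at chr7:103827879-103828178 (-), Hbb-bt at chr7:103813874-103814173 (-), Alas2 at chrX:150547167-150547466 (+) and Klf1 at chr8:84901732-84902031 (+).
Hba-a1: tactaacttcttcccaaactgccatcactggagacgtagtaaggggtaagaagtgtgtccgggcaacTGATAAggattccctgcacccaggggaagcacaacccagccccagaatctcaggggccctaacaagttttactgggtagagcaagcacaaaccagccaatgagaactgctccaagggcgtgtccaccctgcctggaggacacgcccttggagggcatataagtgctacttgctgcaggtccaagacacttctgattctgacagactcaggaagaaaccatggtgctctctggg
Hbb-bs: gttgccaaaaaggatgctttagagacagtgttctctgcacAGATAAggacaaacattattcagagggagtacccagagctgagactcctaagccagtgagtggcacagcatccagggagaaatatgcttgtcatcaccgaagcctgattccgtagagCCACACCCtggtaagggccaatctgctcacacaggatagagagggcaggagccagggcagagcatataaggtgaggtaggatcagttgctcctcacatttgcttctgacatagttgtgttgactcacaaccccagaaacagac
Hbb-bt: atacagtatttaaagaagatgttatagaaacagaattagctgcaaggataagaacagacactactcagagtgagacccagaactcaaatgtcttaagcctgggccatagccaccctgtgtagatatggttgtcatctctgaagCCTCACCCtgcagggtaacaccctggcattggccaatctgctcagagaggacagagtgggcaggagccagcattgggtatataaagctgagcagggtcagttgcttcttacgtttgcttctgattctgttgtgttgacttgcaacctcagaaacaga
Alas2: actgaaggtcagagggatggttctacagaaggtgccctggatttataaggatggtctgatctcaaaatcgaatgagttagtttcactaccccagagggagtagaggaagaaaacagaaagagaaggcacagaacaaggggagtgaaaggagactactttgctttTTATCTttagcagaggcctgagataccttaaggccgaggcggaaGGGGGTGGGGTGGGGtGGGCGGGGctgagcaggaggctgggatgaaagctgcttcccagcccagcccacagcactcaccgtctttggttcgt
Klf1: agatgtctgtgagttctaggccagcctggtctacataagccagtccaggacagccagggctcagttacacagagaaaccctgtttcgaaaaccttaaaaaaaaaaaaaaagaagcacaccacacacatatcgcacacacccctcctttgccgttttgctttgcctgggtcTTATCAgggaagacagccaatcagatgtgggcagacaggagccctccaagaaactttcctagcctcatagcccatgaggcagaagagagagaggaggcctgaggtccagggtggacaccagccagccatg

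Of the 35 members, 29 had a RefSeq promoter. AGATAA or TGATAA was present in promoters of 17 of these 29 genes (58.6%), against 20.96% of all 27025 genes with a promoter, and CCNCNCCC in 21 (72.4%), against 51.9%. The GATA letters and the CACC-type letters were found together in 8 (27.6%), against 6.60% of all genes. A match is a run of letters and not a measured binding site. The Hba-a2 window, at chr11:32296242-32296541 (+), matched that of Hba-a1 over 297 positions without a mismatch and began 3 bases further along the shared sequence. Within the coding sequence Hba-a1 and Hba-a2 differed at 1 of 426 bases and Hbb-bs and Hbb-bt at 1 of 441, so reads may have been split between the copies of each pair and the level of a single copy is uncertain. Across the pairs the letters differ: Hba-a1 and Hbb-bs shared 57.5% of aligned coding positions.

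In spleen of day 7 pups every listed member had a negative log2 change in vavCre, and heme, membrane, cytosolic and globin genes were lower together. Of the 34 tested, 19 were called lower (adjusted p under 0.05, limma) and 0 higher, where 2.54% of all 15130 genes tested were called lower and 2.98% higher. The median change of the members was -1.12 on the log2 scale, in a range of -1.84 to -0.38, and that of all genes was -0.02. Libraries of the 2 genotypes did not overlap, vavCre being lower, for 27 of the 34 members, against 12.4% of all genes. In these bulk libraries fewer erythroid cells and less erythroid RNA per cell cannot be told apart.

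In marrow macrophages more members passed the test. All 34 changes were again negative, 25 were called lower and 0 higher, where 4.4% of all genes were called lower and 3.41% higher. The members' median was -1.40, in a range of -2.71 to -0.12, and that of all genes -0.04. For 25 members the vavCre libraries lay wholly below the WT libraries, against 10.9% of all genes. The tissues shared 16 called members, which is 84.2% of the 19 in spleen and 64.0% of the 25 in marrow; they share no library, but the fit pooled their spread. Bpgm, Ppox and Trim10 were called in spleen alone, 9 members in marrow alone, and Gfi1b, Kel, Nfe2, Rhd, Tmcc2 and Trim58 in neither.

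Not every call was equally firm. With any single library left out, 9 of the 19 spleen calls and 17 of the 25 marrow calls still passed. The spleen calls that did not were Urod, Ppox, Ermap, Slc4a1, Aqp1, Tspan33, Bpgm, Trim10, Hba-a1 and Hbb-bs, most often without vavCre replicate 2 or WT replicate 1 or 2, with adjusted p-values of up to 0.225 for Ppox and 0.0742 and 0.0750 for the globins. The marrow calls that did not were Gata1, Urod, Ermap, Sptb, Ank1, Icam4, Tspo2 and Tspan33, most often without vavCre replicate 3 or WT replicate 1 or 3, with adjusted p-values of up to 0.125 for Sptb.

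**Figure D1:**
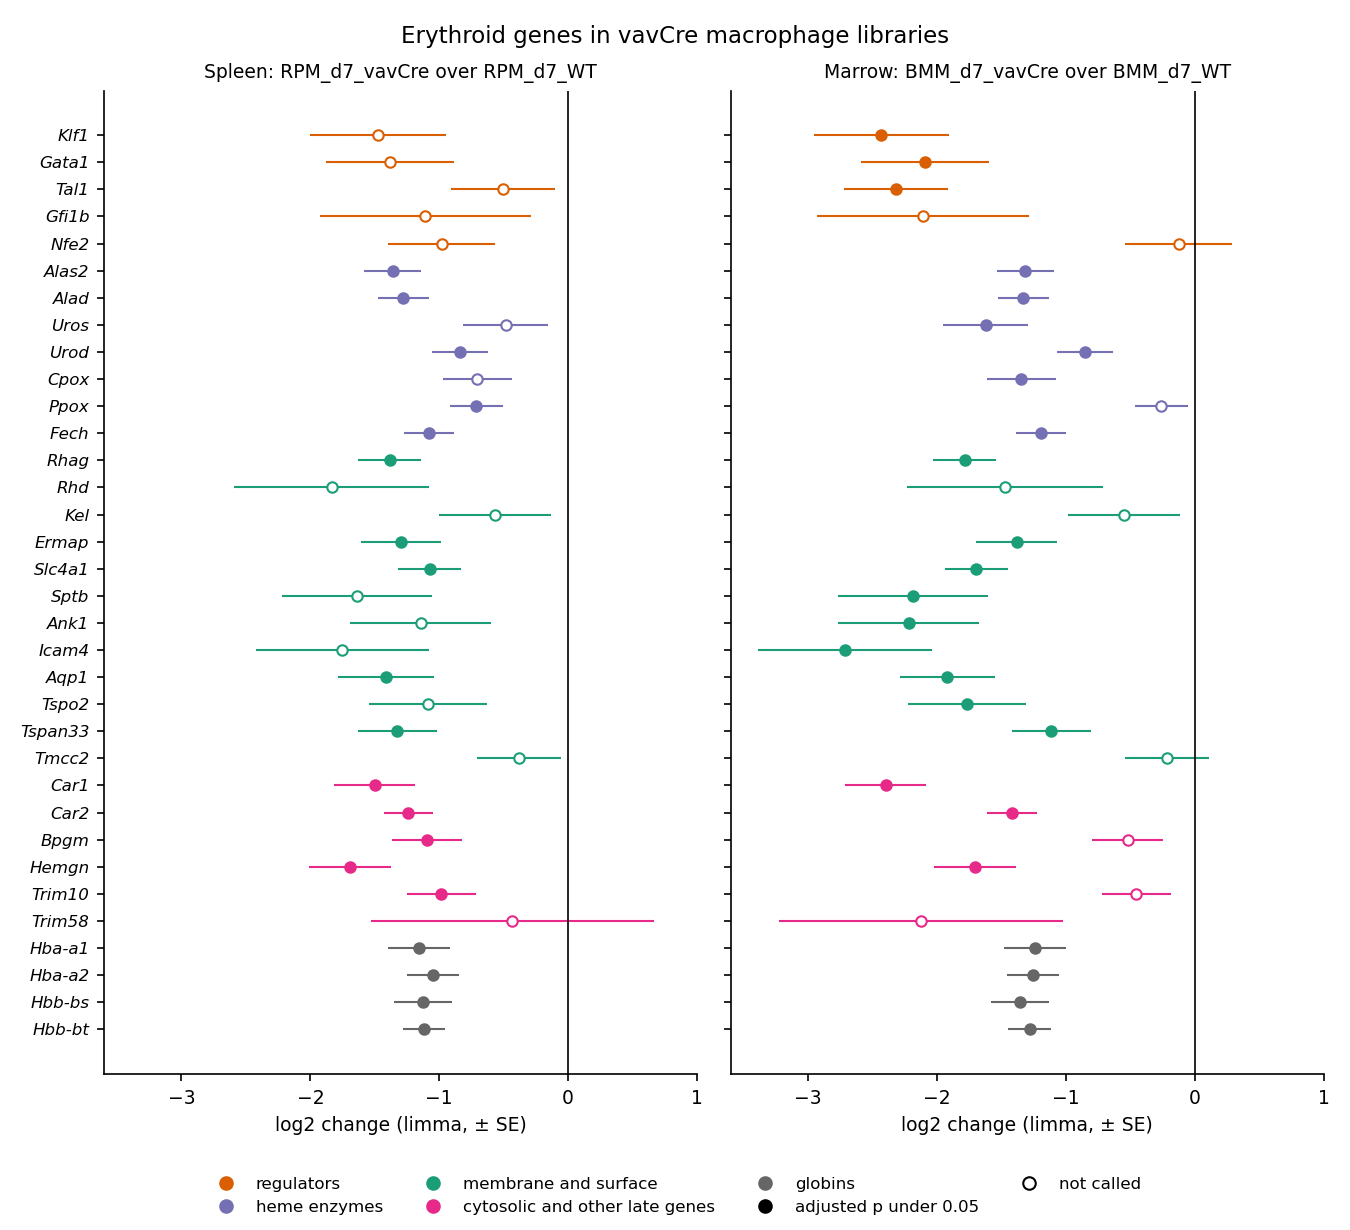
Log2 change of each listed member in vavCre relative to WT, in spleen (left panel) and bone marrow (right panel), with bars of 1 SE; colours give the stage and filled points have an adjusted p under 0.05. All 34 points lie left of 0 in both panels, 19 of them filled in spleen and 25 in marrow.

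Among the regulators, Gata1, the master factor of red cell commitment, read 144, 35.2 and 36.2 normalised counts in marrow vavCre, against 201.1, 209 and 355 in marrow WT, and 171, 90.7 and 186 in spleen vavCre, against 482, 308 and 349 in spleen WT. In neither tissue did the genotypes overlap. The change was -2.09 ± 0.49 in marrow (adjusted p = 0.0117) and -1.38 ± 0.49 in spleen (adjusted p = 0.133, 95% interval -2.42 to -0.34). The marrow call did not hold without marrow WT replicate 3 (adjusted p = 0.0653).

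Klf1, which drives the globin and membrane genes, behaved alike. Its values were 140, 77.6 and 22.6 in marrow vavCre, against 533, 171 and 447 in marrow WT, and 284, 153 and 291 in spleen vavCre, against 625, 633 and 692 in spleen WT. The change was -2.43 ± 0.52 in marrow (adjusted p = 0.00619) and -1.48 ± 0.52 in spleen (adjusted p = 0.129). Spleen WT libraries lay close together, and marrow WT replicate 2 stood well below the other marrow WT libraries.

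Tal1, the partner of GATA1 in erythroid complexes, was 81.6, 72.7 and 54.3 in marrow vavCre, against 465, 208 and 431 in marrow WT (log2 change -2.32 ± 0.41, adjusted p = 0.00108). Its spleen values, 188, 187 and 313 in vavCre, against 348, 464 and 195 in WT, overlapped (log2 change -0.50 ± 0.41, adjusted p = 0.643). The difference between these changes, spleen minus marrow, was 1.82 (95% interval 0.61 to 3.02), which did not pass the test over all genes (adjusted p = 0.469).

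Gfi1b, a repressor needed for erythroid and megakaryocytic growth, had a change of -1.11 ± 0.82 in spleen and -2.11 ± 0.82 in marrow, neither of them called. Nfe2, a factor of globin and platelet genes, had -0.98 ± 0.42 in spleen (adjusted p = 0.235) and -0.12 ± 0.42 in marrow (adjusted p = 0.914, 95% interval -0.997 to 0.748). Of the 5 regulators, 0 were thus called in spleen by limma and by edgeR, 1 (Klf1) by DESeq2, and 3 had an unadjusted p under 0.05; in marrow 3 were called. Marrow WT replicate 2 was the lowest of its group for 4 of the 5 regulators and for none of the 4 globins.

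**Figure D2:**
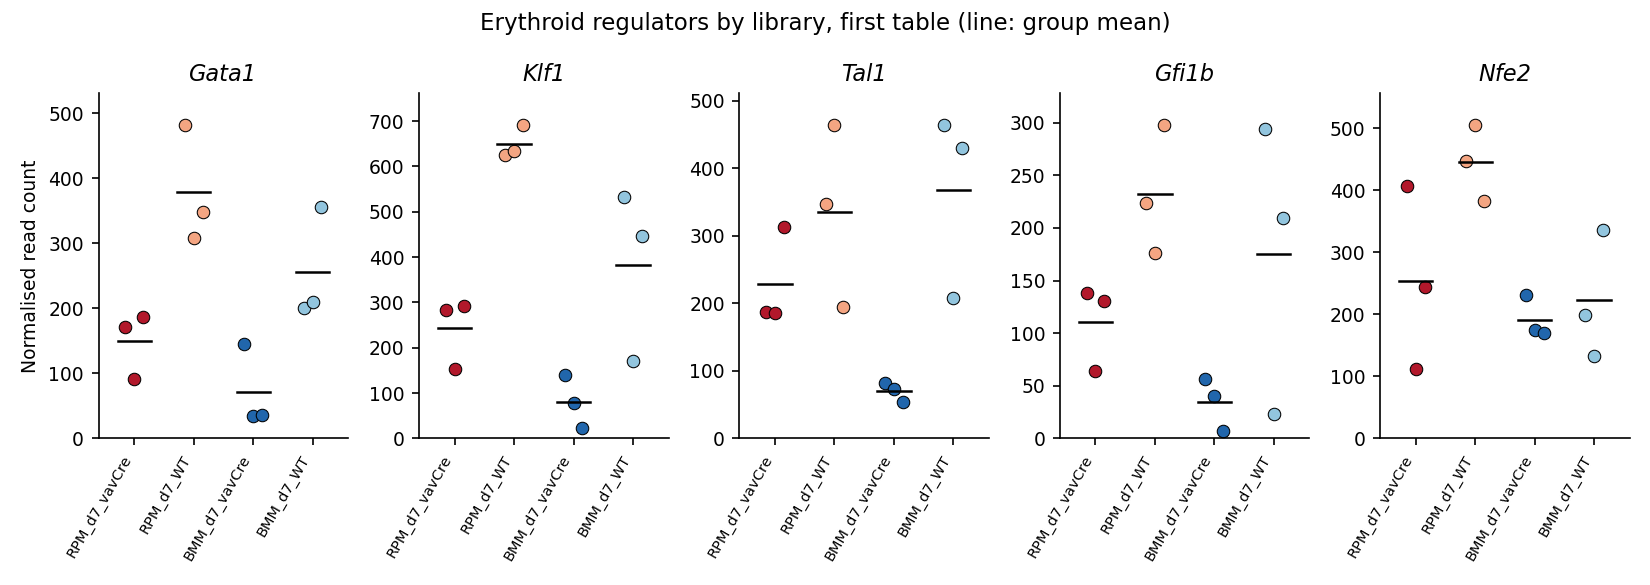
Normalised read counts of the 5 regulators in each library of the first table (points) with the group mean (line), vavCre left of WT for spleen (RPM) and marrow (BMM). The marrow vavCre points of Klf1 lie between 22.6 and 140, all below the marrow WT points, while those of Nfe2 overlap WT.

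The heme pathway was lower at its entry and at its last step in both tissues. Alas2, the erythroid enzyme that starts heme synthesis, measured 2399, 1326 and 1541 in spleen vavCre, against 5298, 3725 and 4200 in spleen WT. In marrow it measured 1426, 1447 and 1014 in vavCre, against 3439, 3919 and 2395 in WT. The groups did not overlap, and the change was -1.36 ± 0.22 in spleen (adjusted p = 0.00055) and -1.32 ± 0.22 in marrow (adjusted p = 0.000743). Fech, which inserts the iron, had 1574, 950 and 1262 in spleen vavCre, against 2511, 2894 and 2465 in spleen WT (log2 change -1.08 ± 0.19, adjusted p = 0.00139), and fell by 1.19 ± 0.19 in marrow (adjusted p = 0.000529).

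Between them, Alad, which joins the precursors into the pyrrole ring, fell by 1.28 ± 0.20 in spleen and by 1.33 ± 0.20 in marrow, and Urod, a decarboxylase of the pathway, fell by 0.84 ± 0.22 in spleen and by 0.85 ± 0.22 in marrow. Uros, which closes the ring, had a change of -0.49 in spleen (adjusted p = 0.547), and it fell by 1.62 ± 0.33 in marrow (adjusted p = 0.00384). Cpox, an oxidase later in the pathway, was called in marrow (log2 change -1.35 ± 0.27) and had -0.71 in spleen. Ppox, the oxidase before Fech, was called in spleen (log2 change -0.71 ± 0.21, adjusted p = 0.0497) and had -0.26 in marrow. In all, 5 of the 7 enzymes were called lower in spleen, with a median of -0.84, and 6 of 7 in marrow, with a median of -1.32.

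Membrane genes were called for 5 of 12 members in spleen, with a median of -1.31, and for 9 of 12 in marrow, with a median of -1.73. Rhag, the ammonia channel of the Rh complex, counted 408, 347 and 286 in spleen vavCre, against 887, 940 and 865 in spleen WT (log2 change -1.38 ± 0.24, adjusted p = 0.0012). In marrow Rhag counted 142, 200 and 211 in vavCre, against 535, 640 and 724 in WT (log2 change -1.78 ± 0.24, adjusted p = 8.59e-05). Slc4a1, the anion exchanger band 3, counted 1034, 919 and 904 in spleen vavCre, against 2314, 2271 and 1528 in spleen WT (log2 change -1.07 ± 0.24, adjusted p = 0.0103). For both genes the genotypes were fully apart in each tissue, and Slc4a1 fell by 1.70 ± 0.24 in marrow.

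The blood group protein Ermap (-1.30 in spleen, -1.38 in marrow), the water channel Aqp1 (-1.41 and -1.92) and the tetraspanin Tspan33 (-1.33 and -1.11) were also called in both tissues. The skeleton genes were called in marrow alone: Sptb, which encodes erythroid beta spectrin, fell by 2.19 ± 0.58 there and Ank1, the ankyrin that ties spectrin to band 3, by 2.22 ± 0.55. So was Icam4, an adhesion molecule by which erythroblasts bind integrins, with 20.9, 29.1 and 4.53 in marrow vavCre, against 50.3, 160 and 123 in marrow WT (log2 change -2.71 ± 0.67, adjusted p = 0.0161). Tspo2, an erythroid relative of a sterol-binding protein, fell by 1.77 ± 0.46 in marrow. In spleen Sptb (-1.64), Ank1 (-1.14), Icam4 (-1.75) and Tspo2 (-1.09) also had negative changes, which were not called. For each of these genes the 95% interval of the interaction included 0. Kel, Rhd and Tmcc2 were not called; their changes were -0.57, -1.84 and -0.38 in spleen and -0.55, -1.47 and -0.21 in marrow.

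Of the cytosolic and other late genes, 5 of 6 were called in spleen and 3 of 6 in marrow. Car2, a carbonic anhydrase that other cells make too, measured 4090, 3117 and 4266 in spleen vavCre, against 9030, 8936 and 8864 in spleen WT (log2 change -1.24 ± 0.19, adjusted p = 0.000357). Its relative Car1 measured 305, 218 and 438 in spleen vavCre, against 926, 813 and 881 in spleen WT (log2 change -1.50 ± 0.31, adjusted p = 0.00527). The spread of Car2 in spleen WT was narrow and no vavCre library reached it. In marrow Car1 measured 165, 92.1 and 165 in vavCre, against 939, 506 and 788 in WT (log2 change -2.40 ± 0.31, adjusted p = 5.33e-05). Hemgn, a nuclear protein of erythroid precursors, fell by 1.69 ± 0.32 in spleen and by 1.70 ± 0.32 in marrow. Bpgm, which makes the metabolite that loosens the hold of haemoglobin on oxygen, and Trim10, a protein needed by maturing mouse erythroid cells, fell in spleen (log2 changes -1.10 ± 0.27 and -0.99 ± 0.27). In marrow their changes were -0.52 and -0.45 and their groups overlapped. Trim58, a ubiquitin ligase known in mouse erythroblasts shedding their nuclei, had only 0 to 154 reads per library of the first table and a change with an SE of 1.10 in either tissue.

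Globins fell in both tissues by about as much as each other. Hbb-bs, the more highly read of the adult beta genes, measured 71810, 50280 and 48500 in spleen vavCre, against 138000, 140100 and 94640 in spleen WT. In marrow it measured 47680, 50550 and 34630 in vavCre, against 135500, 117800 and 87340 in WT. No vavCre library reached a WT library, and the change was -1.13 ± 0.23 in spleen (adjusted p = 0.0141) and -1.35 ± 0.23 in marrow (adjusted p = 0.00418). The changes of Hba-a1, Hba-a2 and Hbb-bt were -1.16, -1.05 and -1.12 in spleen and -1.24, -1.25 and -1.28 in marrow, all called.

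Per kilobase of exon, globins stood far above the rest: Hbb-bs averaged 74041 ± 16894 in spleen vavCre and 161780 ± 33414 in spleen WT (SD, n = 3 each). Car2, the highest of the other members, averaged 1579 ± 256 per kilobase in spleen vavCre and 3693 ± 34.4 in spleen WT, and Alas2 730 ± 236 in spleen vavCre and 1834 ± 336 in spleen WT. Ank1 was the lowest per kilobase in spleen WT, at 15.1 ± 8.15, and averaged 7.002 ± 3.81 in spleen vavCre.

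Summed by stage, spleen vavCre libraries were lower by a similar factor at every step. Regulators made up 0.00955 ± 0.00312% of the summed signal in spleen vavCre and 0.0209 ± 0.00141% in spleen WT (SD, n = 3 each). Heme enzymes made up 0.0616 ± 0.0116% in spleen vavCre and 0.134 ± 0.00945% in spleen WT, and membrane genes 0.0418 ± 0.00199% in spleen vavCre and 0.0974 ± 0.0162% in spleen WT. Cytosolic genes made up 0.0559 ± 0.00764% in spleen vavCre and 0.141 ± 0.00331% in spleen WT. Within the non-globin members, regulators were 5.56 ± 1.24% of the summed value in spleen vavCre and 5.32 ± 0.0251% in spleen WT. In marrow they were 3.72 ± 1.10% in vavCre and 4.93 ± 1.63% in WT. The median log2 changes of the stages in marrow ran from -1.27 for globins to -2.11 for regulators. The summed globins were 7.15 ± 0.939 times the other members in spleen vavCre and 7.05 ± 1.16 times in spleen WT. In marrow they were 9.17 ± 1.40 times in vavCre and 9.61 ± 1.90 times in WT. These sums are dominated by their highest genes and were not tested.

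**Figure D3:**
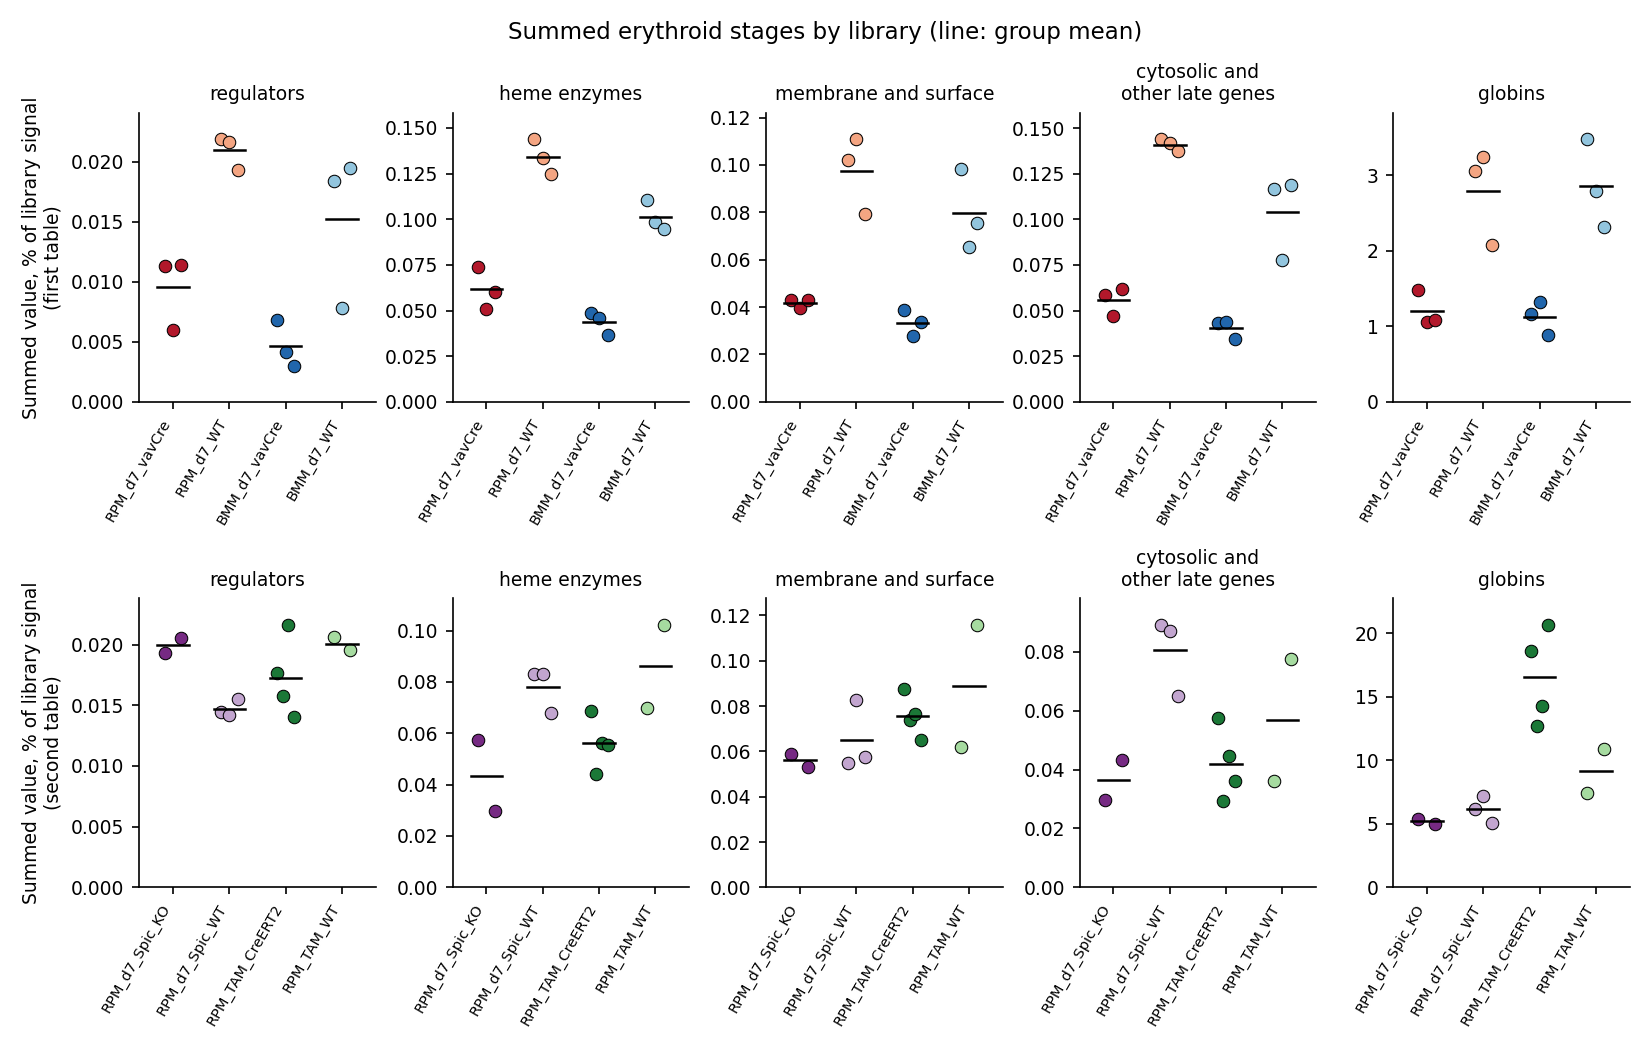
Summed value of each erythroid stage as a percentage of the library's summed signal, by library (points) with the group mean (line), in the first table (upper row) and the second (lower row). In the first table the vavCre points lie below the WT points of the same tissue for every stage, and the globin panel of the second table is led by the CreERT2 libraries.

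The genotype effect was not shown to differ between the tissues. The interaction, spleen minus marrow, was called for 0 of 34 members by limma, where 0.119% of all genes were called in either direction. At an unadjusted p under 0.05 the count was 2, both higher, and edgeR and DESeq2 also called 0. The members' median interaction was 0.19 and that of all genes 0.03. Uros, beside Tal1, had an interval that left out 0 (1.14, 95% interval 0.16 to 2.11).

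Most other erythroid genes and cell cycle genes changed in the direction of the members, in lists also chosen with earlier results of these data known. Of 38 tested genes in a list of 40 other erythroid genes, 7 were called lower in spleen vavCre and 14 in marrow vavCre, with medians of -0.91 and -1.09. Of all genes tested, 2.54% were called lower in spleen and 4.4% in marrow, with medians of -0.02 and -0.04. The change was positive for 4 of the 38 in spleen and for 8 in marrow, with 0 called higher in either tissue. Epor, the erythropoietin receptor, counted 423, 518 and 583 in spleen vavCre, against 1297, 1187 and 1263 in spleen WT (log2 change -1.31 ± 0.20, adjusted p = 0.000281). Cd24a and Prdx2, which encode a surface antigen and a peroxidase, fell in both tissues. Of 27 cell cycle genes, 26 had a negative and 1 a positive log2 change in each tissue. Of the 27, 10 were called lower in each tissue, among them Mki67 and Top2a, with medians of -0.74 in spleen and -0.71 in marrow. Their summed value was 18500 to 23203 in spleen vavCre and 34689 to 36885 in spleen WT, and 15774 to 24828 in marrow vavCre and 31515 to 37482 in marrow WT, with none at 0.

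Markers of other cells also differed by group, and their part in the erythroid decrease was not tested. The summed 12 macrophage markers were 269880 to 301288 in spleen vavCre and 226284 to 257637 in spleen WT, and overlapped in marrow. Single macrophage markers went both ways. In spleen 2 of the 12 were called lower and 2 higher in vavCre (log2 changes from -1.75 to 1.99). In marrow 4 of the 12 were called lower and 3 higher (log2 changes from -2.76 to 1.11). The 4 progenitor markers summed to 46.0 to 97.6 in spleen vavCre, with up to 2 at 0, and 215 to 404 in spleen WT, with 0 at 0. The 10 markers of mast cells, basophils and eosinophils summed to 542 to 653 in spleen vavCre and 3108 to 4494 in spleen WT. The 12 markers of T and NK cells had a higher sum, 2654 to 3299 in spleen vavCre and 876 to 1596 in spleen WT, although 9 of the 12 had a negative log2 change in spleen and 1 was called higher (median -0.81). In marrow their sum was also higher, 5235 to 7157 in marrow vavCre with 5 to 10 markers at 0, and 1510 to 3103 in marrow WT with 0 to 3 at 0, and 11 of the 12 had a negative log2 change (median -2.36). The 12 of neutrophils summed to 2581 to 5687 in spleen vavCre and 352 to 2565 in spleen WT (median log2 change 2.12), whereas in marrow the sums overlapped, 1571 to 2252 in marrow vavCre and 1503 to 4574 in marrow WT (median log2 change -1.26). The 11 of megakaryocytes and platelets summed to 9283 to 14389 in spleen vavCre and 787 to 1100 in spleen WT, and to 16028 to 17902 in marrow vavCre and 2657 to 4171 in marrow WT. In spleen vavCre that sum is nearly all Pf4 (9144 to 14120), while Gp9, which is more specific to platelets, read 1.70 to 43.0 in spleen vavCre, against 20.8 to 72.5 in spleen WT. The 12 B cell markers summed to 2690 to 4258 in marrow vavCre and 5076 to 12406 in marrow WT, with 11 of the 12 negative in log2 change (median -1.80), and the sums overlapped in spleen. The progenitor sums (81.5 to 358 in marrow vavCre and 199 to 1086 in marrow WT) and those of mast cells, basophils and eosinophils (140 to 4398 in marrow vavCre and 1834 to 6493 in marrow WT) overlapped in marrow. In marrow WT, replicate 2 held the most B cell and progenitor signal (12406 and 1086), against 5076 and 7723, and 199 and 461, in the other libraries.

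Between the tissues, spleen and marrow macrophages carried like amounts of globin, and some non-globin members were higher in spleen. Among WT libraries 2 of 34 members, Alad and Ppox, were called higher in spleen and 0 lower, where 2.07% of all genes were called higher and 1.82% lower. Alad measured 1616, 1620 and 1953 in spleen WT, against 1010, 1050 and 1061 in marrow WT (log2 change 0.73 ± 0.20, adjusted p = 0.0467). Ppox measured 1088, 1076 and 914 in spleen WT, against 702, 487 and 557 in marrow WT (log2 change 0.83 ± 0.21, adjusted p = 0.0286). Neither call is firm: leaving out single WT libraries brought the count to between 0 and 1, and scaling every library to an equal sum without the members brought it to 0. The globin changes had a median of -0.01, with a 95% interval for Hbb-bs of -0.37 to 0.63.

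Among vavCre libraries 7 members were called higher in spleen than in marrow (Tal1, Alad, Uros, Rhag, Slc4a1, Car1, Car2) and 0 lower, where 2.68% of all genes were called higher and 0.820% lower. Car1 measured 305, 218 and 438 in spleen vavCre, against 165, 92.1 and 165 in marrow vavCre (log2 change 1.17 ± 0.31, adjusted p = 0.0445). Tal1, with the values given above, was higher by 1.68 ± 0.41 (adjusted p = 0.0251). Without single libraries the count ran between 0 and 7, and it was 2 with libraries scaled to an equal sum; none of the 7 calls held in every such repeat. Hbb-bs had a change of 0.36 (95% interval -0.14 to 0.86).

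In the second table, macrophages of Spic_KO pups carried less of several late red cell genes, and their alpha globins were higher relative to their beta globins. Of 35 members 4 were called lower (Kel, Bpgm, Car1, Car2) and 1 higher (Hba-a2), where 2.48% of all 16650 genes were called lower and 1.47% higher. The members' median was -0.64 and that of all genes 0.00, with 27 negative and 8 positive changes. The groups did not overlap for 15 members lower and 4 higher in Spic_KO, against 19.4% and 14.8% of all genes.

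Car2 measured 278 and 320 in Spic_KO, against 909, 791 and 617 in Spic_WT (log2 change -1.35 ± 0.32, adjusted p = 0.0206). Car1 measured 12.5 and 11.9 in Spic_KO, against 67.7, 41.3 and 61.2 in Spic_WT (log2 change -2.10 ± 0.58, adjusted p = 0.0453). Bpgm measured 41.1 and 12.4 in Spic_KO, against 207, 184 and 114 in Spic_WT (log2 change -2.79 ± 0.73, adjusted p = 0.0341). All 3 late genes lay wholly below Spic_WT. Kel, a surface peptidase with a blood group antigen, measured 6.51 and 4.66 in Spic_KO, against 49.0, 101 and 36.9 in Spic_WT (log2 change -3.15 ± 0.75, adjusted p = 0.0193), from 13 and 9 reads in the Spic_KO libraries. These calls rest on few libraries: with single libraries left out the count of lower members ran from 0, without Spic_WT replicate 1 or 2, to 5.

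No regulator passed the test. Gata1 measured 45.6 and 153 in Spic_KO, against 24.01, 23.1 and 39.8 in Spic_WT, which is higher in both Spic_KO libraries but not called (log2 change 1.54 ± 1.22, adjusted p = 0.56). Klf1 was uneven within Spic_KO, 96.6 and 11.4, against 64.0, 33.99 and 50.5 in Spic_WT. The regulators' median change was -0.03, with 0 of 5 called in either direction by limma, edgeR or DESeq2 and 0 at an unadjusted p under 0.05. They made up 12.8 ± 1.68% of the summed value of non-globin members in Spic_KO and 6.28 ± 1.13% in Spic_WT (SD, n = 2 and 3), and cytosolic genes 23.7 ± 8.13% in Spic_KO and 33.7 ± 2.82% in Spic_WT. Heme enzymes had a median of -0.64, with 7 of 7 negative and 0 called by limma (2 at an unadjusted p under 0.05, 0 called by edgeR and 1 by DESeq2). Alas2 measured 184 and 94.2 in Spic_KO, against 371, 366 and 295 in Spic_WT (log2 change -1.37 ± 0.42, adjusted p = 0.0706). Among the membrane genes, Aqp1 measured 4.51 and 2.59 in Spic_KO, against 39.4, 54.7 and 31.7 in Spic_WT (log2 change -3.24 ± 0.98, adjusted p = 0.0687), the most negative of the members and not called. Epb41, the skeleton protein 4.1 listed in this table alone, measured 171 and 130 in Spic_KO, against 113, 207 and 170 in Spic_WT, which overlap. Slc4a1 ran the other way without a call, 246 and 197 in Spic_KO, against 124, 182 and 133 in Spic_WT (log2 change 0.60, adjusted p = 0.41).

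The alpha and beta globins parted in Spic_KO. Hba-a2 measured 26920 and 27310 in Spic_KO, against 15930, 17900 and 12070 in Spic_WT (log2 change 0.84 ± 0.19, adjusted p = 0.015). Hba-a1 measured 33970 and 34790 in Spic_KO, against 38040, 40920 and 30300 in Spic_WT (log2 change -0.07 ± 0.19, adjusted p = 0.937). Hbb-bs measured 11150 and 12990 in Spic_KO, against 32050, 35730 and 25810 in Spic_WT, the groups lying far apart. Its change of -1.36 ± 0.76 was not called when all 4 groups of the table shared their spread (adjusted p = 0.408), and was with the 2 compared groups alone (adjusted p = 0.00908). Hbb-bt, the other adult beta gene, followed it with -1.30 ± 0.63 (adjusted p = 0.321, and 0.0131 with the compared groups alone). The Hba-a2 call did not hold without Spic_KO replicate 2 (adjusted p = 0.115) or without Spic_WT replicate 1 or 3. Reads may also have been split between the alpha copies, so the level of Hba-a2 alone is uncertain. Of the 38 other erythroid genes tested in this table, 3 were called lower in Spic_KO (Cd24a, Add2, Dmtn) and 1 higher (Zbtb7a). That is 7.89% and 2.63% of the list, against 2.48% and 1.47% of all genes.

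**Figure D4:**
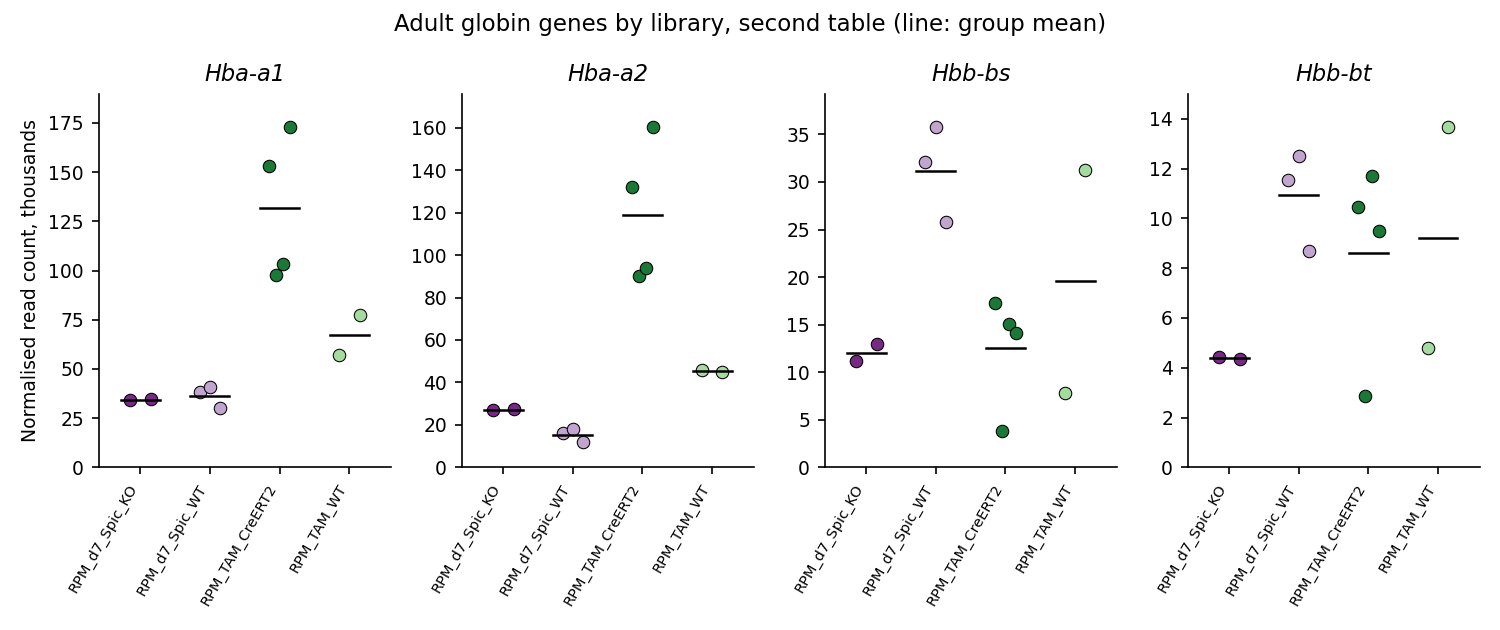
Normalised read counts, in units of 1000, of the 4 adult globin genes in each library of the second table (points) with the group mean (line). Both Spic_KO points lie below all Spic_WT points for Hbb-bs and Hbb-bt and above them for Hba-a2, and all CreERT2 points lie above the adult WT points for both alpha globins.

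Expressed as a ratio, the summed alpha globins were 3.91 and 3.58 times the summed beta globins in Spic_KO, against 1.24, 1.22 and 1.23 times in Spic_WT. In the 12 libraries of the first table the ratio ran between 0.602 and 0.750 in vavCre and between 0.599 and 0.674 in WT, although the globins themselves fell there. The ratio in WT differs between the tables. In spleen WT of day 7 pups it was 0.599 to 0.645 in the first, against 1.22 to 1.24 in Spic_WT. The Spic_KO ratios are therefore read against Spic_WT alone. As read, Hba-a2 was 0.792 and 0.785 times Hba-a1 in Spic_KO, against 0.419, 0.437 and 0.398 times in Spic_WT. The copies are nearly identical, so the level of either alone is uncertain. The copy ratio also moved with depth in the second table. In adult WT it was 0.802 at 1.90 M reads and 0.578 at 4.24 M. In CreERT2 it was 0.862 to 0.927 at 0.693 to 1.67 M reads. The part of depth in the copy ratio was not tested. Hbb-bt was 0.396 and 0.335 times Hbb-bs in Spic_KO, against 0.361, 0.350 and 0.337 times in Spic_WT, which overlap.

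Adult libraries labelled CreERT2 carried more alpha globin, and the rest of the red cell genes showed no called change. By limma 2 of 35 members were called higher (Hba-a1, Hba-a2) and 0 lower, where 0.0601% of all genes were called higher and 0.0841% lower. At an unadjusted p under 0.05 the same count was 2 higher and 0 lower. The median change was -0.17 for the members and 0.00 for all genes. Hba-a1 measured 153300, 97780, 103500 and 172700 in CreERT2, against 57110 and 77620 in adult WT (log2 change 0.94 ± 0.18, adjusted p = 0.0432). Hba-a2 measured 132100, 89990, 94110 and 160100 in CreERT2, against 45820 and 44890 in adult WT (log2 change 1.35 ± 0.18, adjusted p = 0.00289). No CreERT2 library fell to the level of the WT libraries for either gene, where 6.07% of all genes were higher without overlap. Every CreERT2 library (0.693 to 1.67 M reads) was also shallower than both adult WT libraries (1.90 and 4.24 M). The part of depth in the alpha globin level was not tested. Without WT replicate 1 neither was called (Hba-a2 1.37, adjusted p = 0.166), and Hba-a1 was also lost without CreERT2 replicate 1 or 5 or WT replicate 3.

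The beta globins of adults overlapped between the groups. Hbb-bs measured 17280, 3869, 15100 and 14090 in CreERT2, against 7855 and 31230 in adult WT (log2 change -0.52 ± 0.72, adjusted p = 0.885, 95% interval -2.21 to 1.17). Hbb-bt had a change of -0.09 ± 0.60. The changes of all 35 members ran from -1.72 for Gata1 to 1.76 for Trim58, the last from 0 to 21 reads per library. CreERT2 replicate 2 was the lowest of its group for both beta genes and for 21 of the 35 members, and without it the Hbb-bt change was 0.38; WT replicate 1 was the lower of its pair for 29 of 35. Gata1 was at 0 reads in CreERT2 replicate 2, which allows a value of up to 6.65 by counting error alone, beside 38.6, 61.2 and 77.1 in the other CreERT2 libraries, against 71.0 and 64.8 in adult WT. Heme enzymes had negative changes for 7 of 7 members, with a median of -0.60 and 0 called by limma, edgeR or DESeq2, and 0 at an unadjusted p under 0.05. Of these Urod alone lay wholly lower in CreERT2, where 7.60% of all genes were lower without overlap.

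The ratio of alpha to beta globin was 10.3, 27.9, 7.38 and 14.1 in the CreERT2 libraries, against 8.14 and 2.73 in adult WT, so the groups overlapped. Depth moved with it. The library with the highest ratio had 0.693 M reads and 3039 beta globin reads, the adult WT library at 8.14 had 1.90 M reads, and the one at 2.73 had 4.24 M. Within the pups, Spic_KO libraries had 2.85 and 3.07 M reads, against 4.24 to 6.29 M in Spic_WT. The part of depth in the ratio was not tested. In the first table, depths of 4.26 to 21.7 M reads went with ratios that stayed under 1.

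**Figure D5:**
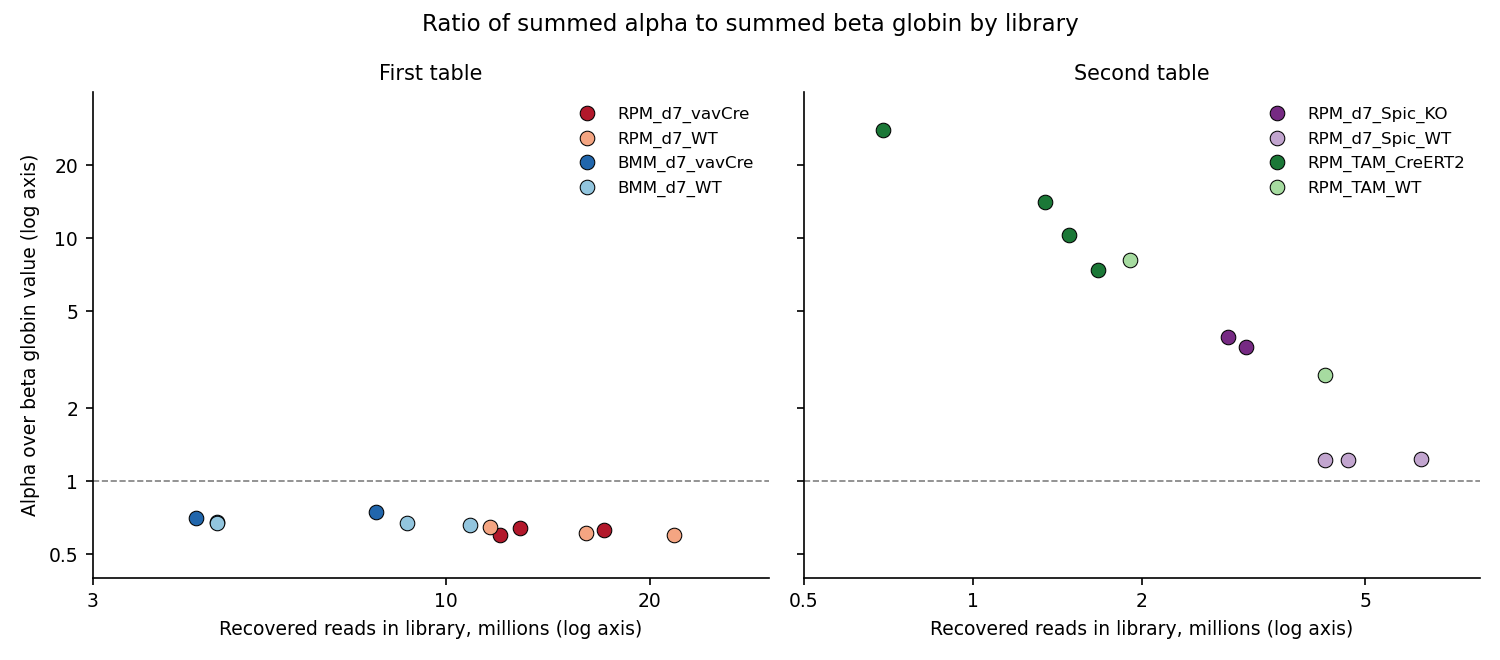
Ratio of summed alpha to summed beta globin values against recovered reads in M, both on log axes, by library, in the first table (left) and the second (right). Ratios of the first table lie between 0.599 and 0.750 at any depth, and in the second the shallowest library has the highest ratio, 27.9.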

How the data were processed

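Each library came from 1000 sorted macrophages by oligo-dT priming, PCR and tagmentation, as the labels' protocols state. The submitters' processing notes list STAR, edgeR and GRCm38, with no version and no role. The 2 deposited tables hold a signal: read counts that the authors normalised within each library. A single factor per library turned nearly all values up to 500 reads into whole reads (tolerance 0.1 read; 97.7 to 100% of values in the first table, 96.6 to 100% in the second), which gave the depths. Library sums differ between the tables (9.14 to 10.5 M against 1.43 to 1.73 M), and levels were compared within a table only. Strand is not stated, so overlapping genes cannot be told apart. PCR reads carry no molecular identifiers, so floors, set at 3 reads, cover counting error only.

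Of the planned tests limma was used, not a count test, since the tables are normalised. Genes reaching a value of 1 in 2 or more libraries were kept (15130 and 16650) and tested as log2(value + 1), which understates changes of low genes. The fit (limma 3.58.1, R 4.3.3) had a mean for each group over all libraries of a table, an intensity trend and robust moderation. Benjamini-Hochberg adjustment ran over all genes tested, and an adjusted p under 0.05 was a call. Every adjusted p in the text is from limma unless another tool is named. Changes are log2 differences with their SE, levels are means ± SD of the values, and levels per kilobase divide by exon length in GENCODE vM21. Ratios and stage sums were described without a test. Alternatives were other filters, pseudocounts and scalings, only the compared groups, the replicate number as a block, leaving out each library, leaving out both libraries doubted in earlier work on these data (Spic_KO replicate 2 and CreERT2 replicate 2), and edgeR 4.0.16 and DESeq2 1.42.0 on the recovered reads. The fit was tested on simulated data. Promoters came from RefSeq and were aligned with Biopython 1.88.

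The members and all lists were chosen with earlier results of these data known. Every member is accounted for. Other genes were named by a rule: Pparg and Spic, up to 4 other erythroid genes per comparison with the smallest adjusted p, Mki67 and Top2a, and the defining markers of other cells. Some genes that the rule names are not reported here. Pf4, Hba-x and Hbb-bh1 were chosen after their values were seen.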

Additional observations from a re-analysis of the deposited data

Results flagged for a closer look

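All of these results come from the 4 CreERT2 libraries, where 1 library stood far from the other 3 of its group by the gap to its nearest neighbour relative to the group's range. Of 44 quantities examined in that group 5 did so, and chance gives about 1 in 20. Cpox was highest in replicate 4, at 152.4. Fech was highest in replicate 1, at 214.7. Epb41, the skeleton protein 4.1, was lowest in replicate 2, at 183.9, and Aqp1 was highest there, at 79.77. The summed globins were 121.234 times the other members in replicate 5, the highest of the group.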

How the results depend on the processing

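No called decrease of a member in vavCre changed sign under any alternative. In spleen 17 to 26 members were called lower over 11 alternatives, against 19 as reported, and 9 to 18 with each library left out; the counts were 11 and 12 without vavCre replicates 2 and 3, and 9 and 10 without WT replicates 1 and 2. In marrow 21 to 26 were called over the alternatives and 19 to 24 with each library left out, against 25. Called under every alternative and every library left out were 9 members in spleen (Alas2, Alad, Fech, Rhag, Car1, Car2, Hemgn, Hba-a2, Hbb-bt) and 17 in marrow. The other comparisons moved more. For spleen against marrow in WT, the 2 members called higher became 0 to 1 with each library left out, 1 with no filter, 1 with an equal summed value, 0 with an equal sum without the members, 4 with only the compared groups and 1 with the replicate block. In vavCre the 7 became 0 to 7 with each library left out, 3 with no filter, and 2 each with an equal sum, an equal sum without the members and only the compared groups. For Spic_KO the 4 lower became 0 to 5 with each library left out, 2 with no filter, 2 with a pseudocount of 5 and 7 with DESeq2. Its 1 higher became 0 to 1 with each library left out, and 0 with a pseudocount of 0.1, with the replicate block and without both doubted libraries. For CreERT2 the 2 higher became 0 to 2 with each library left out, and 1 each with no filter, the strict filter, either other pseudocount, only the compared groups and edgeR with TMM. Without mitochondrially encoded genes, the membrane sum of spleen vavCre was 0.0439% and the cytosolic sum of spleen WT 0.147%. The cause was not tested.

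Same-numbered libraries did not deviate together (correlations of -0.045 to 0.072). With so few libraries per group this check cannot show whether a shared number meant a shared litter or preparation. With the replicate block the calls were 18 lower in spleen, 25 lower in marrow, 7 higher between vavCre tissues and 6 lower in Spic_KO. The block left Hba-a2 uncalled in Spic_KO (adjusted p = 0.202). It called Hbb-bs (adjusted p = 0.000143) and Hbb-bt (adjusted p = 0.000127) lower there. The adult groups share only replicate number 1, so no paired analysis was possible because a block needs at least 2 shared numbers. The shallow adult libraries limit what can be called there: 1 read is worth 2.22 normalised counts in CreERT2 replicate 2.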

Other observations

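Embryonic globins precede the adult chains in development. Hba-x, one of them, read 6.28, 0 and 6.79 in marrow vavCre, against 34.2, 11.4 and 20.9 in marrow WT, and 5.52, 3.39 and 11.1 in spleen vavCre, against 1.81, 4.99 and 1.83 in spleen WT. The 6.28 and 6.79 of marrow vavCre and the 1.81 of spleen WT are 3 reads each, the floor for counting error. Hbb-bh1 read at most 1.21 in every library of the first table. Among the other erythroid genes, Cited4 showed the largest called decrease in marrow vavCre (log2 change -4.48 ± 0.87, adjusted p = 0.00267). In Spic_KO pups, Zbtb7a, a repressor of fetal globin in human cells, was higher than in Spic_WT (log2 change 1.72 ± 0.43, adjusted p = 0.0264), while Add2, the erythroid adducin, and Dmtn, an actin-bundling protein of the skeleton, were lower (-3.28 ± 0.85 and -2.26 ± 0.62).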
